A study of Rattus norvegicus with 9 samples.

Results

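The 9 genes described here encode core parts and direct outputs of the circadian clock: Bmal1, Clock, Per1, Cry2, Nr1d1, Nr1d2, Bhlhe41, Dbp and Hlf. All 9 were on the array, among 10411 genes, and each probe set annotated to 1 of these symbols alone was followed, 15 of 15866. The genes were chosen with earlier results of the same arrays known, and which values chose them is not recorded, so their levels and differences are a description with standard errors and no p-values. RNA came from lumbar dorsal root ganglia (L4 to L6), which hold the cell bodies of sensory neurons, of Sprague-Dawley rats. One group was normal rats dosed with vehicle. The other groups had been injected with streptozotocin (STZ), a toxin of pancreatic beta cells used to make rats diabetic, and received either vehicle or the immunophilin ligand FK1706. Each group was sampled after 1, 2 and 3 weeks of dosing, with 1 array each time that held pooled RNA of 5 rats, 9 arrays in all. Normal rats dosed with FK1706 were not among the groups. The dose, the age of the rats and the clock time of collection are not given in the sources used here.

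In mammals the clock is a transcriptional loop that runs in most tissues, the peripheral nervous system included. BMAL1 and CLOCK pair and activate genes that carry E-boxes, among them the Per, Cry, Nr1d and Bhlhe genes and Dbp. PER and CRY proteins inhibit that pair, while the nuclear receptors NR1D1 and NR1D2 (REV-ERB alpha and beta) repress Bmal1 through response elements (RREs), so that Bmal1 and the Nr1d genes peak at nearly opposite times of day. DBP, HLF and TEF activate genes through D-boxes, and BHLHE41 (DEC2) represses at E-boxes.

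Promoters of the members whose levels varied most are shown with the clock motifs found in them, since these motifs are how the loop's members act on each other. Each window is the 250 bases before an annotated gene start (RefSeq, build GRCr8), 5′ to 3′ on the gene's strand, and 8 of the 9 members matched an entry. The motifs, searched on both strands, were the E-box CACGTG, the E′-box CACGTT, the D-box TTANGTAA and the RRE, which is AGGTCA preceded by AANT. The E-box and E′-box differ in the last letter, so no stretch counted as both. Of all 33469 windows, 5.59% held an E-box, 4.07% an E′-box, 2.04% a D-box and 0.206% an RRE. Capitals mark matches. Bmal1 (chr1:176766078-176766327, plus strand) held an RRE that began 19 bases before the start.
Bmal1: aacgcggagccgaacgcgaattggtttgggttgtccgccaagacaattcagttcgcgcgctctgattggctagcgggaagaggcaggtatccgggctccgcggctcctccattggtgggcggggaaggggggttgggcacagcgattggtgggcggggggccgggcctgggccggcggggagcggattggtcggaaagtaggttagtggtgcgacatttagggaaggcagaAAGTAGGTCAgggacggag
Nr1d1 had windows for 2 starts (chr10:84231813-84232062, minus strand; chr10:84229455-84229704, minus strand), with an E′-box beginning 174 bases and an E-box beginning 191 bases before the start.
Nr1d1, first start: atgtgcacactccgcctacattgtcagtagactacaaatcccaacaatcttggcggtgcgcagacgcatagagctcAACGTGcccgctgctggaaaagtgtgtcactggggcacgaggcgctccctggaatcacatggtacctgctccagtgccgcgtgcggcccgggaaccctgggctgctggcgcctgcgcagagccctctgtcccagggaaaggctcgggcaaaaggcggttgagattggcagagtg
Nr1d1, second start: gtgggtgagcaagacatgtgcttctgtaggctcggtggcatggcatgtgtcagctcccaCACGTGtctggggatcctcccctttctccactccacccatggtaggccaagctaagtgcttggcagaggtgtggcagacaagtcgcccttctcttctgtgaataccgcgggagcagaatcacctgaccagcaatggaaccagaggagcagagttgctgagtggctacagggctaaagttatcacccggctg
Bhlhe41 (chr4:180569356-180569605, minus strand) held an E-box beginning 48 bases before the start.
Bhlhe41: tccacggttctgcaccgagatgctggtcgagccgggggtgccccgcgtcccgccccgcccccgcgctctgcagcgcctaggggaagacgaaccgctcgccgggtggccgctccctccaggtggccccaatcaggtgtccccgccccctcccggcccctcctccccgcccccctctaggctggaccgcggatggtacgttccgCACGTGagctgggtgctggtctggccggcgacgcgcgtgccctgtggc
Dbp (chr1:105312006-105312255, plus strand), the member that varied most, held no match.
Dbp: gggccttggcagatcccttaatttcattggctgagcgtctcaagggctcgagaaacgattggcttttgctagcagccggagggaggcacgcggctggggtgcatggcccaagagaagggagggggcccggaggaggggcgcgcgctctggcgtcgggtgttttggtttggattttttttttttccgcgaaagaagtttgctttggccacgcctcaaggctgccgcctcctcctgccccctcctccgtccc
Per2 (chr9:99496994-99497243, minus strand), a clock gene outside the 9 that was low in week 2 in the normal and in the FK1706 pools, held a D-box beginning 192 bases and an E′-box beginning 62 bases before the start.
Per2: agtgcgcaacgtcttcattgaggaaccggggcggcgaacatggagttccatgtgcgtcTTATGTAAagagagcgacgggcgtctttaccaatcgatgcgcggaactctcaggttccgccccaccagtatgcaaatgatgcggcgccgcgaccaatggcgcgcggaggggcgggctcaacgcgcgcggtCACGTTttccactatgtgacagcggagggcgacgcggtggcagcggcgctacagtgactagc
Cry2 held an E′-box beginning 212 bases before the start, and the windows of Clock, Nr1d2 and Per1 held no match. A match describes letters and is not a bound site.

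Levels are signals of the array software after quantile normalization, and differences are of log2(signal + 18.7). Trimmed mean deposited signals ranged from 360 to 532 over the arrays and were lowest in week 3 in each group, which the normalization removes. Of the 15 member probe sets 12 reached the filter on low signal (a mean log2 of 7.37), and the brightest for each of the 9 genes entered the model over 6989 genes. Dbp, Nr1d1 and Hlf passed through the normal pools: their means over the 6 STZ arrays, 7.10, 7.23 and 7.32, lay below the filter. Bmal1 passed through the STZ pools, with a mean of 7.83 there and 7.25 over the 3 normal arrays. The tissue was checked with 21 sensory neuron markers, of which 19 were on the array and all 19 passed the filter. Their summed signal, led by the neurofilament genes Nefh and Nefm, ranged from 86286 to 89224.

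Dbp, Nr1d1 and Nr1d2 were high in the normal pools of weeks 1 and 3 and not in that of week 2, while Bmal1 was lower in all 3 normal pools than in the 6 STZ pools. The probe sets disagreed for Clock, for Cry2 and, about week 2, for Nr1d2. In the main fit 0 of 9 members passed the model's test in any comparison, beside at most 0.1% of all genes. Nothing is read from the members' count, since they were chosen on these arrays, and the groups hold 3 pools each.

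Bmal1, the activator that the REV-ERBs repress, had signals of 143, 152 and 108 in the normal pools of weeks 1, 2 and 3, 235, 160.5 and 198 in the STZ vehicle pools and 234, 214 and 220.3 in the FK1706 pools. The normal pools did not overlap with the STZ pools, though the week 2 normal and STZ vehicle pools were close. Without normalization between arrays they did overlap, at 100.9 to 172.7 against 152.2 to 272.2. Among all genes tested, 1.72% had the 3 normal arrays below the 6 STZ arrays and 2.38% had them above. Mean log2 signals were 7.25 ± 0.23 (SD, n = 3) for normal, 7.74 ± 0.25 for STZ vehicle and 7.91 ± 0.06 for STZ FK1706 rats. The difference from normal was 0.49 (SE 0.16) for STZ vehicle and 0.67 (SE 0.16) for STZ FK1706, and the STZ groups differed by 0.17 (SE 0.16), or 0.01 without the week 2 STZ vehicle array.

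Clock encodes the partner of BMAL1. Its brightest probe set had signals of 311, 265 and 223 in the normal pools of weeks 1, 2 and 3, 281, 293 and 247 in the STZ vehicle pools and 315, 261 and 236 in the FK1706 pools. Week 3 was lowest in each group, and the groups overlapped. A second probe set ranged from 215 to 241 in normal and from 209 to 291 in STZ pools. The third, below the filter, had 27.3, 18.3 and 18.3 in the normal pools, 57.8, 43.3 and 66 in the STZ vehicle pools and 23.4, 30.3 and 70.5 in the FK1706 pools. On it all STZ vehicle pools lay above all normal pools, and the week 1 FK1706 pool lay among the normal ones. The share of all genes with such a split between normal and STZ vehicle pools was not counted. On the brightest probe set Clock differed from normal by 0.04 (SE 0.12) for STZ vehicle and 0.02 (SE 0.12) for STZ FK1706, and on the deposited scale it was -0.06 and -0.14. The other 2 probe sets, in that order, had 0.24 (SE 0.14) and 0.89 (SE 0.26) for STZ vehicle, and 0.06 (SE 0.14) and 0.52 (SE 0.26) for STZ FK1706. Week 3 against week 1 was -0.34 (SE 0.12) over all groups on the brightest, and 0.05 (SE 0.14) and 0.31 (SE 0.26) on the others.

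Nr1d1 (REV-ERB alpha) had signals of 259, 116 and 233 in the normal pools of weeks 1, 2 and 3, 154, 145 and 129.9 in the STZ vehicle pools and 119.9, 116 and 125 in the FK1706 pools. The normal pools of weeks 1 and 3 were the highest arrays, and that of week 2 was at the level of the FK1706 pools. Mean log2 signals were 7.72 ± 0.57, 7.33 ± 0.11 and 7.12 ± 0.05 (SD, n = 3). The difference from normal was -0.39 (SE 0.21) for STZ vehicle and -0.61 (SE 0.21) for STZ FK1706. Without the week 2 normal array these were -0.70 and -0.92. Without the week 3 STZ vehicle array the first was -0.26, and without the week 1 FK1706 array the second was -0.48. Nr1d1 gave no value without the normal array of week 1 or week 3, since it then lay below the filter.

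Nr1d2 (REV-ERB beta) was read by 3 probe sets. The brightest had signals of 581, 352 and 576 in the normal pools of weeks 1, 2 and 3, 359.6, 491 and 307 in the STZ vehicle pools and 339.8, 435 and 466 in the FK1706 pools. The second had 484, 221 and 595 in the normal pools, 309, 374 and 272 in the STZ vehicle pools and 316, 315 and 317 in the FK1706 pools. On both, normal weeks 1 and 3 were the highest arrays and normal week 2 lay below both STZ pools of that week. The third, below the filter, had 93.5, 71 and 96 in the normal pools, 68.3, 58.7 and 12.3 in the STZ vehicle pools and 59.9, 51.9 and 44.4 in the FK1706 pools. Here all normal pools lay above all STZ pools, so the probe sets disagree about week 2. The lowest normal pool (71) and the highest STZ pool (68.3) were close. How often probe sets below the filter show such a split was not counted. On the brightest the difference from normal was -0.36 (SE 0.22) for STZ vehicle and -0.25 (SE 0.22) for STZ FK1706. It was -0.69 and -0.59 without the week 2 normal array, -0.12 for STZ vehicle without its week 3 array and -0.05 for STZ FK1706 without the week 1 normal array.

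**Figure D1:**
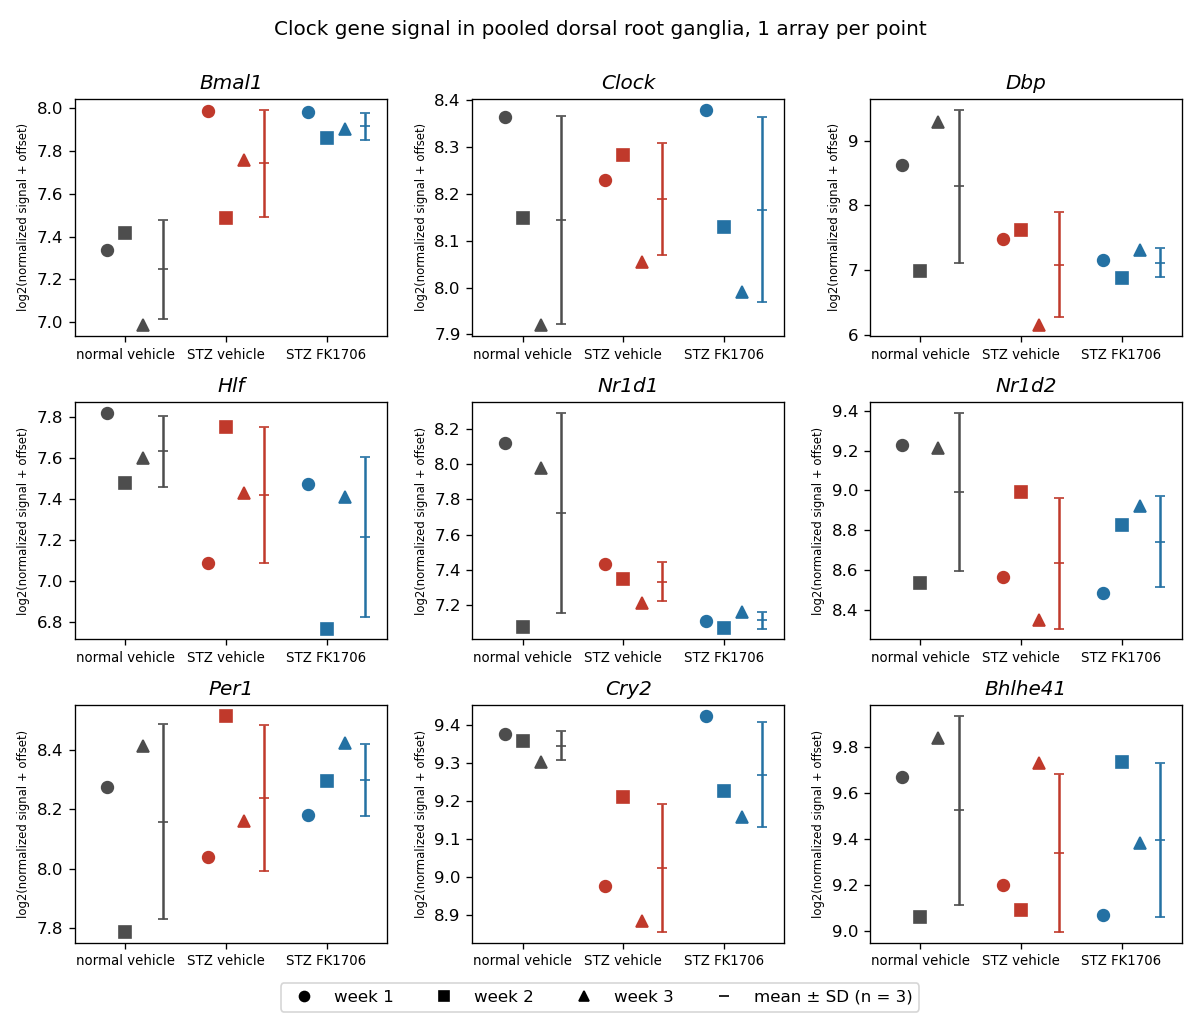
Signal of each clock gene on 9 arrays, as log2 of the normalized signal plus an offset (vertical axes, each with its own range), by group and week, with the mean ± SD of 3 pools beside the points. Dbp, Nr1d1 and Nr1d2 were high in the normal pools of weeks 1 and 3, and Bmal1 was lower in all 3 normal pools than in the 6 STZ pools.

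Per1 encodes an inhibitor of the BMAL1-CLOCK pair that glucocorticoids also induce. Its signal was 291, 202 and 322 in the normal pools of weeks 1, 2 and 3, 244, 347 and 267 in the STZ vehicle pools and 271, 295 and 324 in the FK1706 pools. The lowest and the highest array were both of week 2, from normal and from STZ vehicle rats. Per1 differed from normal by 0.08 (SE 0.18) and 0.14 (SE 0.18) in the vehicle and FK1706 groups, and -0.17 and -0.11 without the week 2 normal array. The summed signal of 14 glucocorticoid-induced genes, with Glul and Tsc22d3 the brightest and Per1 in the list, ranged from 10287 to 11473. That of 13 immediate early genes, led by Jun and Nr4a1, ranged from 4510 to 4964.

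Cry2, a second inhibitor of the pair, had signals of 645, 637 and 612 in the normal pools of weeks 1, 2 and 3, 485, 573 and 454 in the STZ vehicle pools and 667, 579.5 and 552 in the FK1706 pools. All STZ vehicle pools lay below all normal pools, and the FK1706 pools overlapped with both. The share of all genes with such a split between normal and STZ vehicle pools was not counted. On the deposited scale the groups overlapped, since the STZ vehicle pools of weeks 1 and 2 (573.1 and 547.7) lay above the week 3 normal pool (535.3). The difference was -0.32 (SE 0.10) from normal to STZ vehicle, -0.08 (SE 0.10) from normal to STZ FK1706 and 0.25 (SE 0.10) between the STZ groups. For STZ FK1706 against normal it was -0.25 on the deposited scale and -0.01 without the week 2 FK1706 array. A second probe set that passed the filter did not repeat this: its signals were 312, 278 and 296 in the normal pools, 250, 323 and 324 in the STZ vehicle pools and 244, 399 and 412 in the FK1706 pools, and its differences from normal were 0.01 (SE 0.16) and 0.21 (SE 0.16).

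Bhlhe41, the E-box repressor, had signals of 797, 516 and 899 in the normal pools of weeks 1, 2 and 3, 569.5, 527 and 833 in the STZ vehicle pools and 519, 835 and 650.0 in the FK1706 pools. Normal week 2 was the lowest array, but single STZ pools reached the range of normal weeks 1 and 3. Bhlhe41 differed from normal by -0.18 (SE 0.20) for STZ vehicle and -0.13 (SE 0.20) for STZ FK1706, and 0.01 and 0.06 without the week 1 normal array. It was -0.44 for STZ vehicle without the week 2 normal array and -0.48 for STZ FK1706 without its own week 2 array.

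Dbp, a direct E-box target whose protein activates D-box genes, had the widest spread. Its signal was 375, 108 and 604 in the normal pools of weeks 1, 2 and 3, 160.2, 179 and 52.4 in the STZ vehicle pools and 124, 99.5 and 141 in the FK1706 pools. Normal weeks 1 and 3 were the highest arrays, the week 2 normal pool lay among the STZ pools, and the groups overlapped. Mean log2 signals were 8.30 ± 1.18, 7.09 ± 0.81 and 7.12 ± 0.22 (SD, n = 3), where the median SD of all genes tested was 0.13 in the normal pools. The difference from normal was -1.21 (SE 0.49) for STZ vehicle and -1.18 (SE 0.49) for STZ FK1706. Without the week 2 normal array these were -1.93 and -1.90, and without the week 3 STZ vehicle array the first was -0.45.

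Hlf, the relative of Dbp, had signals of 207, 159.7 and 175 in the normal pools of weeks 1, 2 and 3, 117, 196 and 154 in the STZ vehicle pools and 159, 90.2 and 151 in the FK1706 pools. The groups overlapped, and the lowest array was the week 2 FK1706 pool. A second probe set was dim, at 2.38 to 21.4. Hlf differed from normal by -0.21 (SE 0.23) in STZ vehicle rats, which ranged from -0.53 without the week 2 STZ vehicle array to 0.07 without that of week 1. For STZ FK1706 it was -0.42 (SE 0.23), or -0.15 without the week 2 FK1706 array.

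**Figure D2:**
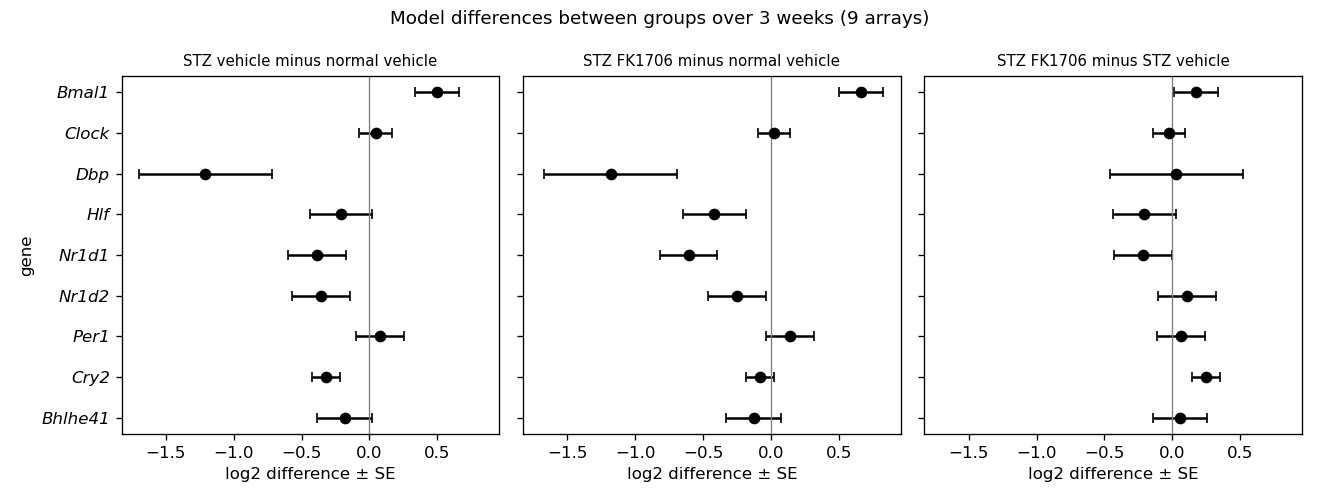
Model differences of the 9 clock genes between groups, as log2 difference (horizontal axes) with the standard error from the fit over 9 arrays. Dbp lies at -1.21 and -1.18 and Bmal1 at 0.49 and 0.67 in the comparisons with normal rats.

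In limma fitted on all genes, 0 of 9 members passed at an adjusted p under 0.05 in STZ vehicle against normal, beside 0.1% of all genes. In STZ FK1706 against normal 0 of 9 passed in limma beside 0.0143%, and in STZ FK1706 against STZ vehicle 0 of 9 beside 0%. At an unadjusted p under 0.05, limma had 3, 3 and 1 members in these comparisons, beside 8.67%, 8.16% and 3.13% of all genes. Nothing is read from these counts, since the members were chosen on the same arrays. The members' median difference was -0.21 in STZ vehicle rats and -0.13 in FK1706 rats relative to normal, with 6 of 9 below 0 in each, beside a median of 0.00 over all genes.

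Over weeks, limma called 0 of 9 members in week 2 against week 1, in week 3 against week 2 and in week 3 against week 1, beside 0.0143% of all genes in each. At an unadjusted p under 0.05, limma had 0, 0 and 1 members beside 5.78%, 10% and 12.7% of all genes. For a linear change over weeks that differs between groups, an F test in limma called 0 of 9 members and 0% of all genes, and 4.09% of all genes were at an unadjusted p under 0.05. That term does not describe a week 2 that stands apart. For 3 members (Nr1d2, Per1 and Bhlhe41) both STZ arrays lay above the normal array in 1 week and below it in another, as for 43.9% of all genes.

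Steps between single pools have no replicate check. Nothing is read from the members' counts beside the shares of all genes, since the members were chosen on these arrays. Dbp, Nr1d1 and Hlf also entered through the normal pools, and Bmal1 through the STZ pools. From week 1 to week 2 of the normal rats 4 of 9 members (Dbp, Nr1d1, Nr1d2 and Bhlhe41) were at least 1.5-fold lower, beside 2.26% of all genes, and 0 higher, beside 1.59%. From week 2 to week 3 of the normal rats 5 of 9 (those and Per1) were at least 1.5-fold higher, beside 2.45%, and 0 lower, beside 1.8%. The log2 steps were -1.63 and 2.29 for Dbp, -1.04 and 0.90 for Nr1d1 and -0.69 and 0.68 for Nr1d2.

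The same steps in the STZ groups are given side by side with no test of the difference. From week 1 to week 2 of STZ vehicle rats 0 members were lower and 1 (Hlf) was higher, beside 0.916% and 0.873% of all genes. From week 2 to week 3, 2 (Dbp and Nr1d2) were lower and 1 (Bhlhe41) was higher, beside 1.86% and 2.35%. In FK1706 rats 1 (Hlf) was lower and 1 (Bhlhe41) higher in the first step, beside 1.46% and 1.53%. In their second step 0 were lower and 1 (Hlf) was higher, beside 1.77% and 2.07%. The Dbp steps were 0.14 and -1.47 with vehicle, and -0.27 and 0.43 with FK1706. The FK1706 steps had the signs of the normal ones, but both were under 1.5-fold and lie between single pools.

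Against the normal pool of week 1, STZ vehicle had 4 members at least 1.5-fold lower (Dbp, Nr1d1, Nr1d2 and Hlf, beside 1.12% of all genes) and 1 higher (Bmal1, beside 0.873%). In week 2 it had 0 lower and 2 higher (Dbp and Per1), beside 1.8% and 2.17%. In week 3 it had 3 lower (Dbp, Nr1d1 and Nr1d2) and 1 higher (Bmal1), beside 2.35% and 2.07%. STZ FK1706 had 4 lower (Dbp, Nr1d1, Nr1d2 and Bhlhe41) and 1 higher (Bmal1) in week 1, beside 1.47% and 1.13%. It had 1 lower (Hlf) and 1 higher (Bhlhe41) in week 2, beside 2.46% for each direction. In week 3 it had 2 lower (Dbp and Nr1d1) and 1 higher (Bmal1), beside 2.36% and 2.02%. Both STZ pools of a week are set against the same normal pool. Nothing is read from these counts beside the shares of all genes, since the members were chosen on these arrays. Dbp, Nr1d1 and Hlf also passed the filter through the normal pools, and Bmal1 through the STZ pools.

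Between the STZ groups, 0 members were 1.5-fold lower or higher with FK1706 in week 1, beside 1.2% and 1.06% of all genes. In week 2, 2 were lower (Dbp and Hlf) and 1 higher (Bhlhe41), beside 1.12% and 1.03%. In week 3, 0 were lower and 1 was higher (Dbp), beside 1.55% and 1.45%. Dbp thus had log2 differences of -0.74 in week 2 and 1.16 in week 3. Here too nothing is read from the members' counts.

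Likeness between genes was measured as the root mean square (RMS) difference of log2 values, each gene centred on its mean over 9 arrays. Values were not scaled to each gene's spread, and nothing is read from those of the members, which were chosen on these arrays. From Dbp, Nr1d1 lay at 0.59, Nr1d2 at 0.65 and Bmal1 at 1.14, where the median gene lay at 0.90. Hlf lay at 0.79, Cry2 at 0.82, Per1 at 0.82, Bhlhe41 at 0.85 and Clock at 0.91. The 5 genes outside the members nearest to Dbp were Thbs4 (0.51), a thrombospondin, Col2a1 (0.63), the collagen of cartilage, Plekhg2 (0.64), Cndp1 (0.66) and the histone demethylase gene Kdm4b (0.67). Nearest to Bmal1 were Angptl4 (0.17), Ilk (0.17), Dpysl3 (0.18), Zbtb18 (0.19) and Pex11a (0.19), where the median gene lay at 0.36. Among the members, Clock lay at 0.32 from Bmal1, Per1 at 0.42, Cry2 at 0.42 and Bhlhe41 at 0.52. Hlf lay at 0.57, Nr1d2 at 0.57, Nr1d1 at 0.64 and Dbp at 1.14.

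Other genes of the clock loop were 13 in the list, of which 7 were on the array and 0 reached the filter. Per2, the partner of PER1, had signals of 257, 63.2 and 327 in the normal pools of weeks 1, 2 and 3, 109, 143 and 94.7 in the STZ vehicle pools and 141, 17.3 and 129 in the FK1706 pools. Tef, the D-box activator related to Dbp, had 180.2, 96.1 and 182 in the normal pools, 143, 147 and 67.1 in the STZ vehicle pools and 89.7, 150.0 and 118 in the FK1706 pools. For both, normal weeks 1 and 3 were the highest arrays, as for Dbp, Nr1d1 and Nr1d2. Bhlhe40, Nfil3, Per3, Rorb and Timeless did not show this, and the share of all genes that do was not counted. Per2 was low in week 2 of the FK1706 rats too, with log2 steps of -2.15 and 2.04 beside -1.75 and 2.08 in the normal rats. Bhlhe40, the relative of Bhlhe41, ranged from 75.8 to 144 in normal and from 71.3 to 127 in STZ pools. Nfil3, a repressor at D-boxes, ranged from 52.8 to 96.3 and from 23.8 to 167, and Per3 from 22.3 to 45.8 and from 3.21 to 32.4. Rorb, an activator at RREs, ranged from 13.4 to 60.5 and from 36.9 to 84.3, and Timeless from 66.2 to 89 and from 53.6 to 86.5.

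In a limma fit with no filter, 0 of these 7 passed over 10411 genes in any comparison of groups or weeks, where 0.00961% of all genes passed in week 3 against week 2 and 0% in the other 5. At an unadjusted p under 0.05 limma had 0, 1 and 2 of 7 in STZ vehicle against normal, STZ FK1706 against STZ vehicle and STZ FK1706 against normal, beside 7.59%, 3.73% and 7.46% of all genes. In week 2 against week 1, week 3 against week 2 and week 3 against week 1 it had 1, 2 and 1 of 7, beside 5.26%, 9.17% and 11.6%. Per2 had -0.58 (SE 0.48, limma adjusted p = 0.811) and -1.06 (SE 0.48, limma adjusted p = 0.665) in STZ vehicle and STZ FK1706 against normal. Tef had -0.33 (SE 0.33, limma adjusted p = 0.847) and -0.29 (SE 0.33, limma adjusted p = 0.866). In STZ FK1706 against normal Per3 had -0.99 (SE 0.27, limma adjusted p = 0.444), Nfil3 -0.61 (SE 0.23, limma adjusted p = 0.634) and Rorb 0.44. In STZ vehicle against normal Per3 had -0.44, Nfil3 0.16 and Rorb 0.59, and Nfil3 had -0.77 (SE 0.23, limma adjusted p = 1) in STZ FK1706 against STZ vehicle. Bhlhe40 and Timeless had 0.06 and -0.10 for STZ vehicle minus normal, and -0.10 and 0.12 for STZ FK1706 minus normal. Nfil3 had -0.64 (SE 0.23, limma adjusted p = 0.485) from week 2 to 3 and -0.98 (SE 0.23, limma adjusted p = 0.222) from week 1 to 3. From week 1 to 2 Per2 had -1.18 (SE 0.48, limma adjusted p = 0.936), and from week 2 to 3 it had 1.20 (SE 0.48, limma adjusted p = 0.53).

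**Figure D3:**
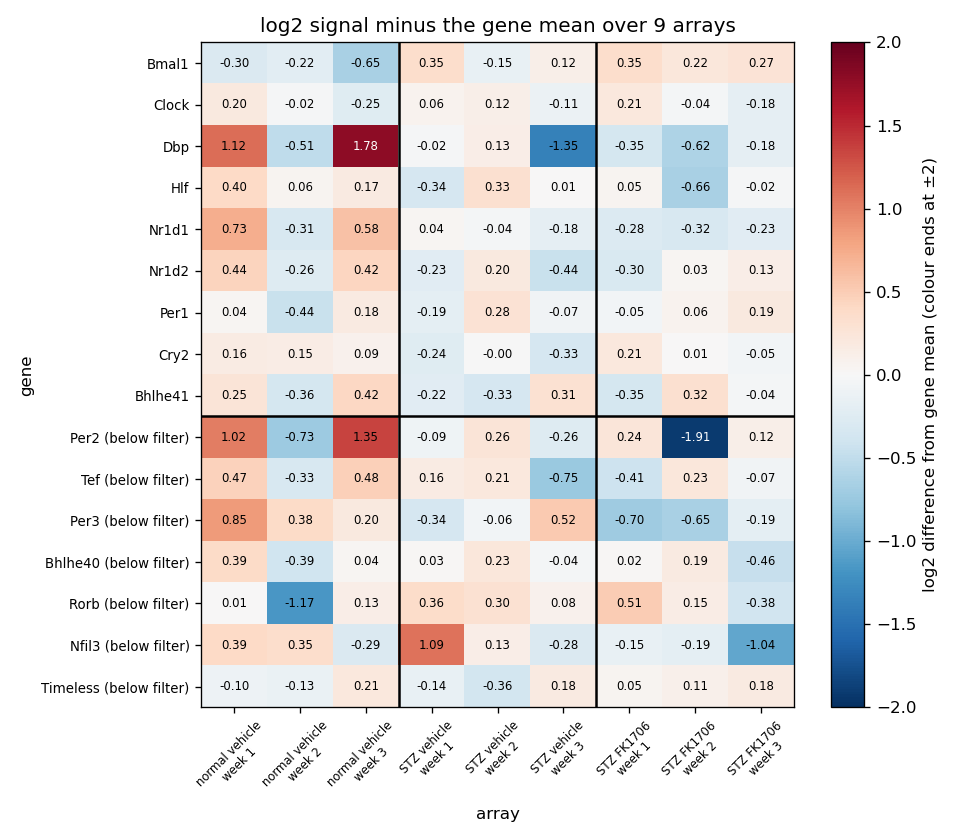
Clock gene log2 signal on 9 arrays (columns), each minus the gene's own mean, with 9 members above the line and 7 other clock loop genes that did not reach the filter below it. Dbp, Nr1d1, Nr1d2, Per2 and Tef are high in the normal pools of weeks 1 and 3, and Bmal1 is low in all 3 normal pools.

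Genes for turnover and co-factors of clock proteins were 21 in the list, 17 on the array and 14 tested. In any comparison of groups or weeks limma called 0 of 14, beside at most 0.1% of all genes. In STZ vehicle against normal 11 of 14 were above 0, with a median of 0.09 beside 0.00 over all genes. Fbxw11, a ubiquitin ligase subunit, had 0.28 (SE 0.14, limma adjusted p = 0.576), the phosphatase gene Ppp2ca 0.15 and the corepressor gene Ncor1 0.16. STZ FK1706 against STZ vehicle uses the same STZ vehicle arrays with the opposite sign, so its values for these genes (-0.19, -0.12 and -0.16) are not independent of the first. In STZ FK1706 against normal, Prkaa1, a subunit of the energy-sensing kinase AMPK, had 0.16, Btrc 0.17 and Ep300 0.14. From week 2 to week 3 the acetyltransferase gene Crebbp had -0.37 (SE 0.13, limma adjusted p = 0.4), Nono -0.20, Ep300 -0.19 and the deacetylase gene Hdac3 -0.19. From week 1 to week 2 Btrc had 0.24 and Kat2b -0.14.

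Clock output genes were 18 in the list, 16 on the array and 11 tested. In any comparison of groups or weeks limma called 0 of 11, beside at most 0.1% of all genes. Por, the electron donor of P450 enzymes, had -0.34 (SE 0.15, limma adjusted p = 0.555) in STZ vehicle and -0.34 (SE 0.15, limma adjusted p = 0.59) in STZ FK1706 against normal. Id2, an inhibitor of helix-loop-helix factors, had -0.45 and Coq10b 0.15 in STZ vehicle against normal, and in STZ FK1706 against normal Tspan4 had -0.56 and Klf9 -0.19. In STZ FK1706 against STZ vehicle the kinase gene Pim3 had 0.15, the glucocorticoid target Tsc22d3 0.12 and Id2 0.30. From week 1 to week 2 Pim3 had 0.26 and Lpin1 0.13. From week 2 to week 3 Por had -0.32, Id2 -0.37, Coq10b 0.18 and the heme synthesis gene Alas1 -0.40.

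Markers of other cell types differed between the same pools. In bulk tissue fewer cells of a type and less RNA per cell cannot be told apart. The summed signal of fibroblast markers (12 tested of 13, led by Dcn and Col3a1) was 38907, 29208 and 33283 in the normal pools of weeks 1, 2 and 3, 28914, 23791 and 26041 in the STZ vehicle pools and 31506, 26361 and 26511 in the FK1706 pools. Normal weeks 1 and 3 were the highest arrays, as for Dbp, and limma called 3 of the 12 lower in STZ vehicle against normal, beside 0.1% of all genes. Skeletal muscle markers (10 tested of 18, led by Pvalb, which some sensory neurons also express, and Myh1) summed to 5510, 8996 and 6220 in the normal pools, 5770, 4603 and 6830 in the STZ vehicle pools and 4852, 6498 and 4949 in the FK1706 pools. Acta1, skeletal muscle actin, had 552, 1722 and 909 in the normal pools, 684, 339 and 951 in the STZ vehicle pools and 587, 1102 and 321 in the FK1706 pools. The week 2 normal pool, low in Dbp, was the highest in muscle transcripts. The part of fibroblast and muscle RNA in the clock gene levels was not tested.

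Cartilage and bone markers (6 tested of 12, led by Cnmd and Ctsk) summed to 2778, 2436 and 2258 in the normal pools, 1803, 1546 and 1389 in the STZ vehicle pools and 2032, 1603 and 1647 in the FK1706 pools. All normal pools lay above all STZ pools, the split seen for Bmal1 in the other direction. In STZ vehicle against normal limma called 1 of the 6 lower, beside 0.1% of all genes, with 6 of 6 below 0. Myelinating Schwann cell markers (12 tested of 15, led by Pmp22 and Mbp) summed to 47732, 46757 and 47768, then 46534, 41041 and 44685 with STZ vehicle and 45116, 43372 and 42882 with FK1706. Their normal pools too lay above all STZ pools, with 11 of 12 genes below 0 in STZ vehicle and 12 of 12 in FK1706 rats relative to normal. In these comparisons limma called 0 of 12, beside 0.1% and 0.0143% of all genes. The part of these cell types in the clock gene levels was not tested.

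Other summed marker signals over the arrays ranged from 19578 to 21163 for 7 satellite glia genes (Apoe and Sparcl1), 6905 to 8451 for 7 macrophage genes (Lyz2 and Cd74) and 1601 to 1927 for 5 endothelial genes (Cldn5 and Kdr). They ranged from 929 to 2618 for 4 neutrophil and mast cell genes (S100a9 and S100a8), 7517 to 11306 for 2 red blood cell genes (Hbb and Alas2) and 13565 to 15182 for 10 temperature-responsive genes (Hspd1 and Dnaja1).

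**Figure D4:**
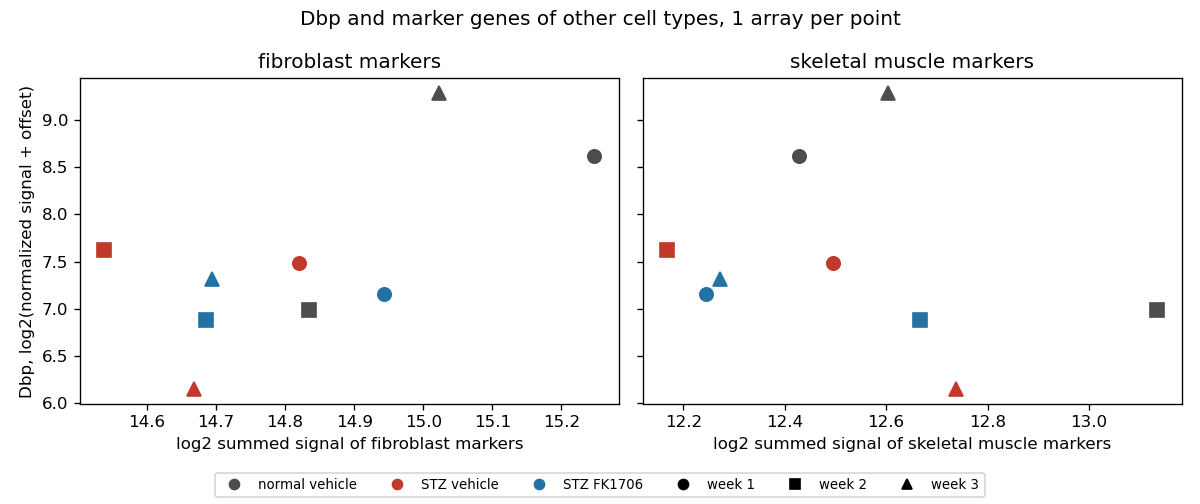
Dbp log2 signal (vertical axis) against the log2 summed signal of fibroblast and of skeletal muscle marker genes (horizontal axes), 1 point for each of 9 arrays. The normal pools of weeks 1 and 3 are highest in both Dbp and fibroblast markers, and the normal pool of week 2 is highest in muscle markers.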

How the data were processed

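The authors deposited an intensity for each probe set, a linear MAS5 signal per the submitters' processing notes, with no version named. Arrays differed in overall level. Signals were quantile normalized, an offset of 18.7 (their 10th percentile) was added and log2 was taken. Of 15866 probe sets other than controls, 12783 had 1 gene symbol, 312 several and 2771 none. For 12748 of the probe sets with 1 symbol the gene was found in the GRCr8 gene table. The brightest probe set stood for each gene, and genes at or above the 40th percentile of mean signal were tested. limma 3.58.1 (R 4.3.3) was fitted to all 9 arrays with group and week as factors, leaving 4 residual degrees of freedom (2 with the linear week term), with a variance trend, two-sided tests and Benjamini-Hochberg adjustment. P-values and standard errors rest on the spread left after group and week. With 1 array per group and week, spread between pools and week effects that differ between groups cannot be told apart in it. Few arrays limit precision. The fit was tested on simulated data. Week was the block, as each group was sampled once per week. With group means removed, same-week arrays had r from 0.01 to 0.33.

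The members and gene lists were chosen with earlier results of these data known. Named are all members, up to 6 genes of each other clock list by moderated t between successive weeks and up to 3 for each group comparison, the 5 genes nearest to Dbp and to Bmal1, and the 2 brightest genes of each marker list with Acta1. The 7 other loop genes were named whatever their values, a choice made after their values were seen. Alternatives were other scales, offsets and filters, all probe sets, no variance trend, no week block and leaving out each array.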

Additional observations from a re-analysis of the deposited data

Results flagged for a closer look

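For 3 members both STZ pools lay on one side of the normal pool in 1 week and on the other side in another, which 43.9% of all genes also showed. The difference between weeks was not tested. Averaged over both STZ pools, Nr1d2 differed from normal by -0.70, 0.38 and -0.58 (log2) in weeks 1, 2 and 3. Per1 differed by -0.16, 0.62 and -0.12, although in week 3 its STZ FK1706 pool lay level with the normal pool. Bhlhe41 differed by -0.54, 0.35 and -0.28. Each value rests on 1 normal pool, and for these genes the week 2 normal pool was the lowest normal pool.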

How the results depend on the processing

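Of 912 member differences under alternatives, 22 moved by at least the gene's own SD within groups. That SD was wide for Dbp. For STZ vehicle against normal 0 of its 15 values counted as moved, though they ran from -1.93 to -0.45. Dbp, Nr1d1 and Nr1d2 stayed below 0 and Bmal1 above 0 in both STZ groups against normal under the alternatives that gave a value. Nothing is read from these signs, since the members were chosen on these arrays. With the filter at the 60th percentile Bmal1, Clock, Dbp, Nr1d1, Hlf and Per1 gave no value. Dbp and Nr1d1 also gave no value without the normal array of week 1 or week 3, the arrays where they were highest. Dbp ranged from -0.74 to 0.69 between the STZ groups, without the week 3 and without the week 2 STZ vehicle array. Its sign there changed under 5 of 15 alternatives. The count of all genes called in STZ vehicle against normal, 7, was 16 on the deposited scale, 0 with no filter, 1 with no replicate block and 0 without a variance trend, and 0 to 6 leaving out 1 array. In STZ FK1706 against normal the count of 1 was 106 on the deposited scale, 2 with all probe sets and 0 with no filter or no trend, and 0 to 2 leaving out 1 array. STZ FK1706 against STZ vehicle had 0 in limma under all alternatives, with 134 to 388 genes at an unadjusted p under 0.05. Week 2 against week 1 (1 gene) had 168 on the deposited scale, 0 with trimmed mean scaling, no filter, no replicate block, all probe sets or no trend, and 0 to 4 leaving out 1 array. Week 3 against week 2 (1 gene) had 1605, 3 with the filter at the 60th percentile, 2 with no replicate block, 0 with no trend, and 0 to 2 leaving out 1 array. Week 3 against week 1 (1 gene) had 5106, 0 with no filter or no trend, 9 with the filter at the 60th percentile, 2 with no replicate block, 3 with all probe sets, and 0 to 11 leaving out 1 array. The linear week term had 0, and 0 to 54 leaving out 1 array, the most without the week 1 STZ vehicle array. On the deposited scale the median of all genes moved by -0.10, -0.07 and -0.17 between groups and by -0.20, -0.22 and -0.43 between weeks. On that scale limma called 1 of 9 members in week 3 against week 2, where it called 1605 of all genes. In week 3 against week 1 it called 3 of 9 members, where it called 5106 of all genes. Nothing is read from these members' counts. The causes were not tested.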
